A study of Mus musculus with 4 samples.

Results

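The genes described here are Trp53, which encodes p53, and 5 genes that act back on p53 or are known p53 targets around it: Mdm2, Mdm4, Ccng1, Ppm1d and Zmat3. They were chosen by symbol, and all 6 are among the 32285 genes counted in each library. p53 is a transcription factor that is held low in unstressed cells because the ubiquitin ligase Mdm2 marks it for degradation. DNA breaks release p53 from Mdm2, and p53 then induces Mdm2 and other genes whose products switch it off again, which makes a negative feedback loop. In irradiated tissue p53 is controlled mainly at the protein level, which RNA counts do not show.

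Single-cell RNA sequencing had been done on mouse hindlimb muscle, with 1 library for each of 4 groups. One hindlimb of male C57Bl/6J mice received 3 X-ray fractions of 8.2 Gy at 5 weeks of age under a body shield (IR), and the opposite, shielded limb of the irradiated mice served as the control (CON). Limbs were taken 24 hours after the last fraction or 56 days after irradiation, and cells of 3 limbs were pooled before live mononucleated cells were sorted. The labels name no genetic modification. The controls came from irradiated animals too and shared the circulation of the treated limb. Values are given below with the control before the irradiated limb, first at 24 hours and then at 56 days, unless stated otherwise. There were no replicate libraries, so no difference between groups was tested, and each interval in parentheses is an exact 95% interval that covers counting error only. Because limbs were pooled, variation between animals is not in these intervals.

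The libraries contained 1471, 2763, 1822 and 1030 barcodes with between 4715202 and 10121978 unique molecular identifiers (UMIs, each standing for a captured RNA molecule). After filters on genes, UMIs and mitochondrial share, 1336, 2539, 1700 and 969 cells were kept, with median depths of 3057 to 3627 UMIs. Cells were gated into classes by fixed marker genes, and 387 of the 6544 kept cells met no gate. Endothelial-like cells were the largest class, with 485, 1583, 805 and 489 cells, of which 13 to 51 per library sat at the edge of the gate. Their median cell had 10 of 12 endothelial markers and 0 of every other list, and Robo4, Tie1 and Kdr were among its 10 leading genes. Each other class described below had between 1 and 5 of its own markers among its 10 leading genes, except Schwann-like cells with 0, whose leading genes were Foxd3, Pmp2, Sox2, Chl1 and others. Levels are given as CPM, the UMIs of a gene per 1000000 UMIs of the class. Summed endothelial markers stood at 14660, 13660, 15156 and 13657 CPM in endothelial-like cells. Markers of other cell types were also present there and differed between libraries. Summed markers of fibro-adipogenic progenitors (connective tissue precursors) stood at 28.2, 463, 47.5 and 120.0 CPM, those of pericytes or smooth muscle at 1481, 1280.4, 516 and 526.5, and those of neutrophils at 6.27, 8.01, 800.4 and 1638. Over all libraries, 11 barcode sequences occurred in more than 1 library.

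The stretches before the start sites are shown because 4 of the 5 members with a RefSeq promoter entry contain a match to a p53 half-site, the core element that p53 binds in pairs. They come from RefSeq on GRCm38.p6 and are written in the direction of the gene, ending where the annotated gene begins. Capitals mark half-site matches, and in Ppm1d also TGACGTCA, the element bound by CREB and ATF factors.
Mdm2, chr10:117710759-117711008, minus strand: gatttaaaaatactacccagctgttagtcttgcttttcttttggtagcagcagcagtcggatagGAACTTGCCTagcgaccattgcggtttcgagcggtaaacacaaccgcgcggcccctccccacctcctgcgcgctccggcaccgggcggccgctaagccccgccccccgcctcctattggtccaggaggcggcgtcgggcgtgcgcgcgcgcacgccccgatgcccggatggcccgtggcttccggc
Ccng1, chr11:40755312-40755536, minus strand: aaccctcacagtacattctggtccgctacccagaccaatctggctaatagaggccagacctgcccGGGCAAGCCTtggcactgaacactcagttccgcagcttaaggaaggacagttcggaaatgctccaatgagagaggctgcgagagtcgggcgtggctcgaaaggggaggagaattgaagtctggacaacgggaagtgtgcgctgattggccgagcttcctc
Ppm1d, chr11:85311004-85311243, plus strand: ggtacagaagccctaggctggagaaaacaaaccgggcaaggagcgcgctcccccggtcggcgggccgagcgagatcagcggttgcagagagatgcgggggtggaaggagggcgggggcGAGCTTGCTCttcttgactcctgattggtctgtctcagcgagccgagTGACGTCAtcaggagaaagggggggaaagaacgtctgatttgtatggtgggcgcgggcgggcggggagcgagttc
Trp53, chr11:69580109-69580347, plus strand: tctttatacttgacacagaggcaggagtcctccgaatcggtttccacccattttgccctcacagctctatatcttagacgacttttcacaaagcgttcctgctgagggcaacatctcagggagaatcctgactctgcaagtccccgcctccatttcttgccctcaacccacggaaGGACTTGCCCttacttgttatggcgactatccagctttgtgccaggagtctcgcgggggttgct
Mdm4, chr1:133030588-133030837, minus strand: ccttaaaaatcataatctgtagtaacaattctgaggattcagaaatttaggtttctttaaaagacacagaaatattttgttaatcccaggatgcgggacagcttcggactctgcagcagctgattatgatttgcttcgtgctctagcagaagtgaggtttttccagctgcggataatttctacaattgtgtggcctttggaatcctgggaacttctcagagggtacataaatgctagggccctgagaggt
The match read GAACTTGCCT in Mdm2 at bases -186 to -177 from the start site. It read GGGCAAGCCT in Ccng1 at -185 to -176. In Ppm1d it read GAGCTTGCTC at -132 to -123, and TGACGTCA followed at -85 to -78. Trp53 itself had GGACTTGCCC at -75 to -66, and neither of the Mdm4 windows held a match. Each full window ran from 250 bases before to 50 after the start site and was searched on both strands. Of 32851 such windows in the genome, 2745 (8.36%) held a half-site match and 588 (1.79%) held TGACGTCA, with no overlap between the Ppm1d matches. A match describes letters only and was not measured as binding here.

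Trp53 RNA in irradiated endothelial-like cells was within 1.5-fold of the control at both times, while 5 of the 6 genes, all but Trp53, were at least 1.5-fold higher in the irradiated library at 24 hours. Of 11282 genes measured in these cells (at least 20 UMIs over both libraries), 17.2% were past 1.5-fold on the higher side and 6.13% on the lower side. None of the 6 was lower. At 56 days Mdm2, Ccng1 and Zmat3, 3 of the 6, were still at least 1.5-fold higher and 0 were lower, against 12.9% and 13.3% of 10404 measured genes. With cells thinned to 1000 UMIs, 1 member, Ppm1d, was lower by that fold at 56 days, from fewer UMIs and without an interval.

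Trp53 (ENSMUSG00000059552; GRCm38 chr11:69580359-69591873, plus strand) had 127, 481, 146 and 140 UMIs in endothelial-like cells, or 66.4, 80.2, 52.9 and 67.4 CPM. Both irradiated libraries lay slightly above their controls. The IR/CON ratio was 1.21 (0.992 to 1.48) at 24 hours and 1.27 (1.00 to 1.62) at 56 days. The late ratio over the early ratio was 1.05 (0.770 to 1.45), an interval that spans 1.

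Mdm2 (ENSMUSG00000020184; chr10:117688875-117710758, minus strand), the ligase gene at the centre of the loop, had 104, 1477, 99 and 194 UMIs, or 54.3, 246, 35.9 and 93.5 CPM. The irradiated library was highest at 24 hours, and the irradiated library at 56 days lay between it and the controls. The ratio was 4.53 (3.71 to 5.59) at 24 hours and 2.61 (2.03 to 3.35) at 56 days. The late ratio was 0.575 times the early one (0.415 to 0.797). The controls differed too, with 0.660 times (0.496 to 0.878) as much Mdm2 at 56 days as at 24 hours. Between the 2 controls, 13.4% of 10292 genes were past 1.5-fold on the higher side at 56 days and 10.5% on the lower side. These control libraries are also the denominators of the IR/CON ratios.

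Mdm4 (ENSMUSG00000054387; chr1:132959484-133030561, minus strand) encodes a relative of Mdm2 that binds p53 and blocks its activity but is a poor ligase on its own. It had 104, 1145, 251 and 142 UMIs, or 54.3, 191, 90.9 and 68.4 CPM. The early irradiated library was the highest of the 4, whereas the late irradiated library lay below its control. The ratio was 3.51 (2.87 to 4.34) at 24 hours and 0.752 (0.608 to 0.928) at 56 days. Late over early it was 0.214 (0.159 to 0.288), the lowest value among the 6 genes. The control at 56 days had 1.67 times (1.33 to 2.12) the Mdm4 of the control at 24 hours. With every cell thinned to 1000 UMIs the late ratio was 1.03, on the other side of 1. Thinning also left out shallower cells and left fewer UMIs, and the cause of this move was not tested. The plus-strand pseudogene Gm29257 overlaps Mdm4 and is not in the gene table.

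Malat1, an abundant RNA that stays in the nucleus, moved between the same libraries in the same order. Its IR/CON ratio in endothelial-like cells was 1.77 (1.74 to 1.79) at 24 hours and 0.901 (0.886 to 0.915) at 56 days, and the late control had 1.23 times (1.21 to 1.25) the early one. The Malat1 ratios were closer to those of Ppm1d, 1.79 and 0.882, than to those of Mdm4. The part of nuclear RNA content in the Mdm4 and Ppm1d values was not tested.

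Ccng1 (ENSMUSG00000020326; chr11:40748552-40755311, minus strand) encodes cyclin G1, which brings protein phosphatase 2A to Mdm2. It had 78, 1503, 104 and 195 UMIs, or 40.8, 251, 37.7 and 93.9 CPM. Both irradiated libraries lay above both controls. Its early ratio of 6.15 (4.90 to 7.83) was the highest of the 6 genes. The late ratio was 2.49 (1.95 to 3.19), which is 0.405 times (0.288 to 0.571) the early one.

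Ppm1d (ENSMUSG00000020525; chr11:85311244-85347066, plus strand) encodes the phosphatase Wip1, which removes activating phosphates from p53 and from the kinases upstream of it. It had 60, 337, 95 and 63 UMIs, or 31.4, 56.2, 34.4 and 30.3 CPM. Only the early irradiated library stood apart, and the intervals of the other 3 libraries overlapped. The ratio was 1.79 (1.36 to 2.40) at 24 hours and 0.882 (0.631 to 1.23) at 56 days, with a late over early value of 0.492 (0.316 to 0.765). After thinning to 1000 UMIs per cell the early ratio was 1.24, under the 1.5-fold limit, and the late ratio was 0.616, past it on the lower side. Thinning left few UMIs of Ppm1d, and no interval was computed for these thinned ratios. The unthinned ratios of Ppm1d were close to those of the nuclear RNA Malat1, 1.77 and 0.901.

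Zmat3 (ENSMUSG00000027663; chr3:32334792-32366014, minus strand) encodes a zinc finger RNA-binding protein that is a p53 target. It had 39, 535, 39 and 147 UMIs, or 20.4, 89.2, 14.1 and 70.8 CPM. Both irradiated libraries were well above both controls, and the late level was near the early one. The ratio was 4.38 (3.16 to 6.23) at 24 hours and 5.01 (3.50 to 7.33) at 56 days. Late over early it was 1.14 (0.689 to 1.91), an interval that includes 1.

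**Figure D1:**
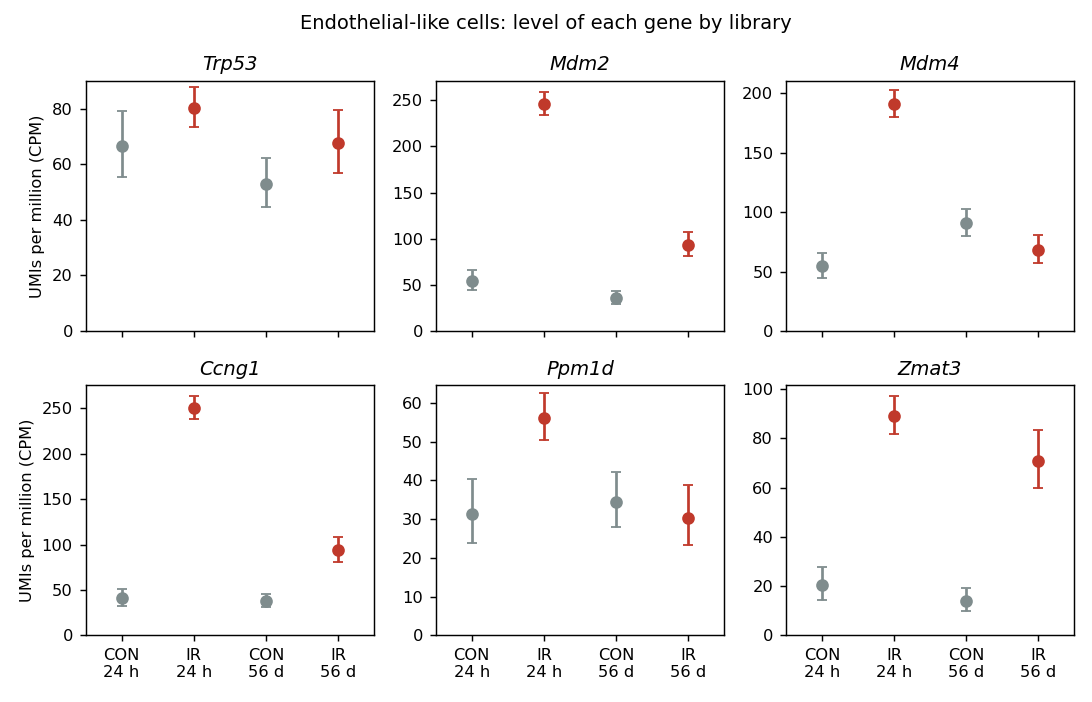
Level of each gene in endothelial-like cells, in CPM (y axis from 0), for the 4 libraries (x axis; grey, shielded control; red, irradiated). Points are class sums and bars exact 95% Poisson intervals for counting error; Zmat3 stays near its early irradiated level at 56 days (89.2 and 70.8 CPM), while Mdm4 does not (191 and 68.4 CPM).

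Cdkn1a, the p21 gene that p53 induces to stop the cell cycle, served as a reference for the time course and is no member. It had 594, 14032, 431 and 2922 UMIs in endothelial-like cells, or 310, 2341, 156 and 1408 CPM. The ratios were 7.54 (6.95 to 8.20) and 9.01 (8.14 to 10.00). Its late over early value of 1.20 (1.05 to 1.37) lay above 1, whereas the intervals of Mdm2, Mdm4, Ccng1 and Ppm1d lay wholly below 1. The irradiated level of Cdkn1a was nevertheless lower late than early, as was its control. In every other class compared at both times its late over early value was below 1, but most of these intervals span 1. Only fibro-adipogenic progenitor-like cells at 0.419 (0.265 to 0.659) and Schwann-like cells at 0.504 (0.397 to 0.641) had intervals wholly below 1. Satellite-like cells were at 0.779 (0.413 to 1.50) and pericyte or smooth muscle-like cells at 0.366 (0.0741 to 1.62). B lineage-like cells were at 0.125 (0.00227 to 1.74) and myofibre-like barcodes at 0.623 (0.113 to 4.49).

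**Figure D2:**
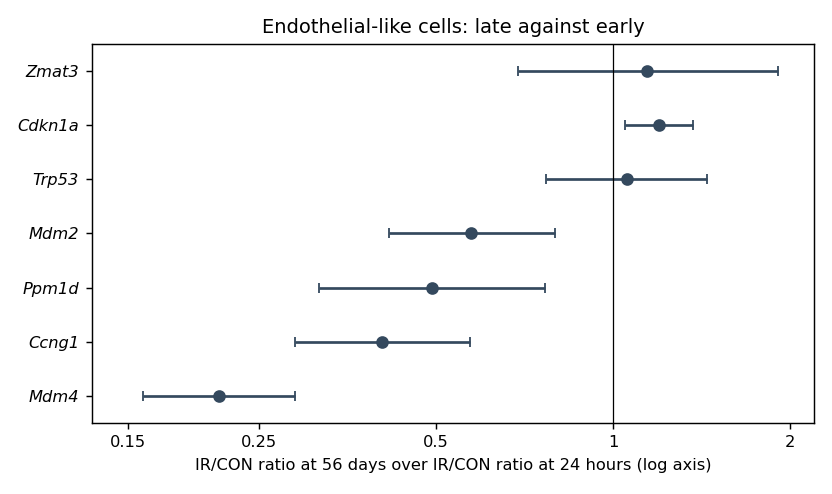
IR/CON ratio at 56 days divided by that at 24 hours in endothelial-like cells (x axis, log scale) for the 6 genes and Cdkn1a (y axis), with exact 95% intervals for counting error. Values run from 0.214 for Mdm4 to 1.20 for Cdkn1a, and the intervals of Trp53 and Zmat3 include 1.

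Relative to Trp53 RNA the feedback genes shifted unequally, though the intervals of Mdm2, Mdm4 and Zmat3 overlapped at 24 hours. For each UMI of Trp53, endothelial-like cells held 0.819 UMIs of Mdm2 in the early control and 3.07 in the early irradiated library, a 3.75-fold change (2.81 to 5.01). The same change was 5.09 (3.73 to 6.96) for Ccng1 and 3.62 (2.45 to 5.44) for Zmat3. It was 2.91 (2.17 to 3.89) for Mdm4 and 1.48 (1.05 to 2.12) for Ppm1d. At 56 days it was 2.04 (1.44 to 2.90) for Mdm2, 1.96 (1.38 to 2.76) for Ccng1 and 3.93 (2.53 to 6.16) for Zmat3. Late values were 0.692 (0.457 to 1.04) for Ppm1d, which spans 1, and 0.590 (0.428 to 0.814) for Mdm4. The products of Mdm2 and Mdm4 form a complex. At 24 hours UMIs of Mdm2 per UMI of Mdm4 changed 1.29-fold (0.962 to 1.73), an interval that spans 1. At 56 days that proportion was 3.46 times (2.49 to 4.82) the control value. Elsewhere its 24-hour change was 1.33 (1.10 to 1.61) over all kept cells and 0.294 (0.139 to 0.602) in B lineage-like cells. The 24-hour intervals of all other classes span 1. At 56 days it was 2.12 (1.69 to 2.65) over all kept cells. Macrophage or monocyte-like cells were at 3.74 (1.17 to 12.2), from 13 and 19 UMIs of Mdm2 and 23 and 9 of Mdm4. The 56-day intervals of the remaining classes span 1, with values on both sides of it.

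Shares of cells with a UMI were compared after thinning each endothelial-like cell to 1000 UMIs, which left out 58, 222, 107 and 53 shallower cells. Mdm2 was found in 5.62, 20.5, 4.58 and 8.72% of thinned cells and in 18.6, 47.1, 9.94 and 25.2% before thinning. Ccng1 was found in 5.85, 21.2, 3.58 and 9.17% of thinned cells and in 12.8, 49.7, 10.3 and 27.2% before. Both were therefore seen in more cells of the irradiated libraries at either time. Zmat3 was found in 1.87, 8.16, 1.29 and 4.82% of thinned cells and in 6.804, 23.8, 4.22 and 19.4% before. As a measure of free RNA, neutrophil-like cells held 0 Zmat3 UMIs in 30 cells of the early control, 32 of the early irradiated and 227 of the late control library, at median depths of 5824, 1979.5 and 4570 UMIs against 3505, 3128 and 2969 in endothelial-like cells. In the largest of these, the late control, the exact upper limit for thinned cells is 1.62%, beside 1.29% found in endothelial-like cells there. That limit exceeds the endothelial-like share, so the thinned cells cannot tell free RNA from expression there. In CPM the exact upper limit for late control neutrophil-like cells is 2.53, beside 14.1 (10.0 to 19.3) in endothelial-like cells. For the early control it is 13.9 CPM, beside 20.4 (14.5 to 27.9). The part of free RNA in these values was not tested. For early irradiated neutrophil-like cells the exact upper limit is 52.4 CPM, beside 89.2 CPM in endothelial-like cells. The late irradiated library had 21 neutrophil-like cells, under the limit of 25, and gives no bound.

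Mdm4 was found in 5.62, 17.3, 8.45 and 8.94% of thinned cells (17.3, 41.3, 24.97 and 23.9% before thinning), with overlapping intervals in the late libraries. Trp53 was found in 5.39, 6.61, 5.01 and 6.42% of thinned cells and Ppm1d in 3.98, 4.85, 3.30 and 2.29%. Before thinning the shares were 20.2, 23.1, 14.4 and 21.1% for Trp53 and 11.5, 17.2, 10.1 and 10.0% for Ppm1d. The thinned intervals of these genes overlapped among all 4 libraries.

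At least 1 UMI of Mdm2, Ccng1, Zmat3 or Ppm1d was present in 15.9, 44.2, 12.5 and 23.4% of thinned endothelial-like cells, and UMIs of at least 2 of these genes in 1.41, 9.63, 0.287 and 1.61%. Cells with a UMI of one gene were compared with the rest. In the early irradiated library Ccng1 was found in 23.3% (18.5 to 28.7) of thinned cells with Mdm2 and in 20.7% (18.3 to 23.2) of those without. Zmat3 was found in 12.2% (8.59 to 16.6) of cells with Mdm2 and in 7.12% (5.66 to 8.81) of those without, intervals that overlap narrowly. The intervals of the other pairs there overlapped, with gaps in both directions. Ppm1d was found in 3.94% of cells with Mdm2 and 5.08% of those without. For Ccng1 the shares were 7.96 and 8.21% for Zmat3, and 5.88 and 4.57% for Ppm1d. Ppm1d was found in 7.21% of cells with Zmat3 and 4.64% of those without. No single cell carried the class sums, since the cell with most UMIs held at most 7.69% of a member's UMIs in any library, and 12 of the 194 late irradiated Mdm2 UMIs came from 1 cell.

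**Figure D3:**
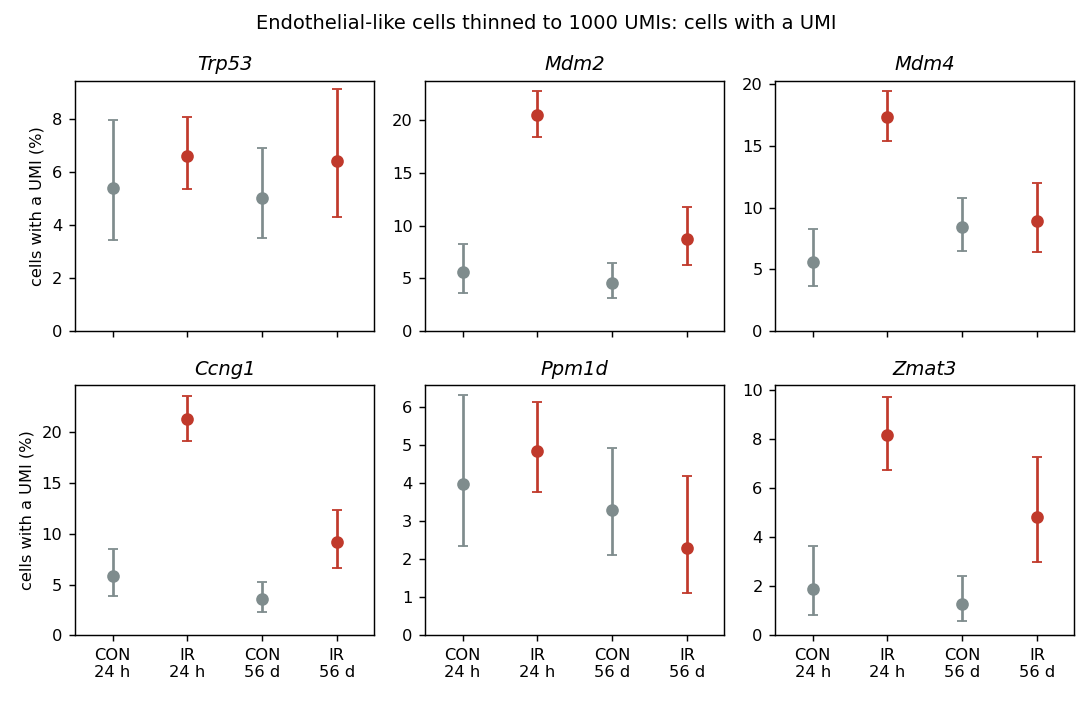
Share of endothelial-like cells with at least 1 UMI of each gene (%, y axis from 0) after thinning each cell to 1000 UMIs, for the 4 libraries (x axis; grey, control; red, irradiated), with exact 95% binomial intervals. Mdm2 and Ccng1 reach 20.5 and 21.2% in the early irradiated library, and Trp53 stays between 5.01 and 6.61%.

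Among the other classes, Trp53 had its highest levels in lymphoid and satellite-like cells (muscle stem cells). It stood at 145, 161, 110 and 138 CPM in B lineage-like cells and at 112, 146, 123 and 143 in satellite-like cells. T or NK-like cells, compared at 24 hours only, had 106 and 197 CPM. In the early control these 3 classes stood above the rest, and the intervals of B lineage-like and T or NK-like cells, but not that of satellite-like cells, lay clear of the one of endothelial-like cells at 66.4 CPM. Fibro-adipogenic progenitor-like cells had 36.7, 49.6, 46.0 and 74.6 CPM, Schwann-like cells 42.8, 56.2, 49.3 and 56.0, and pericyte or smooth muscle-like cells 59.5, 45.0, 21.7 and 71.7, with neighbours in this order overlapping. Macrophage or monocyte-like cells had 76.2, 66.0 and 46.8 CPM in the last 3 libraries. Neutrophil-like cells were low at 15.1, 14.2 and 16.5 CPM in the first 3 libraries, and myofibre-like barcodes held at most 3 UMIs in any library. Erythroid-like cells had 6.41 CPM in the early and 61.8 in the late control, but there 87.3% of 4248 measured genes were at least 1.5-fold higher in the late control, so the gene is not read further in that class.

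Trp53 was at least 1.5-fold higher in 1 of 7 classes that measured it at 24 hours and in 2 of 7 at 56 days. In T or NK-like cells its 24-hour ratio was 1.86 (1.25 to 2.73) from 86 and 41 UMIs. These cells had all 5 measured members at least 1.5-fold higher, against 25.8% of genes higher and 12.8% lower, and the intervals of Trp53 and Mdm2 alone left out 1. The median of all genes there was 0.22 higher on the log2 scale. Trp53 at 56 days in pericyte or smooth muscle-like cells had a ratio of 3.31 (1.33 to 9.84), from 6 and 26 UMIs, where 18.1% of genes were at least 1.5-fold higher.

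Fibro-adipogenic progenitor-like cells, the precursors of connective tissue, had 4 of 5 measured members at least 1.5-fold higher at 24 hours (21.9% of genes higher, 10.5% lower). Mdm2 stood at 29.4, 99.3, 46.0 and 35.3 CPM and Ccng1 at 47.8, 171, 53.5 and 70.7. The early ratios were 3.38 (1.58 to 8.29) for Mdm2, 3.57 (1.97 to 6.999) for Ccng1, 2.48 (1.18 to 5.83) for Zmat3 and 2.17 (1.06 to 4.90) for Mdm4. At 56 days 2 of 5 measured members, Trp53 and Ppm1d, were past 1.5-fold (16.2% of genes higher, 22.5% lower), with intervals that span 1. Ppm1d was at 0.985 among cells with at most 1 marker of another class. Late over early, Mdm2 was at 0.227 (0.0686 to 0.725) and Ccng1 at 0.370 (0.1504 to 0.897). Without the cell with most Mdm2 UMIs in each library the 56-day Mdm2 ratio was 0.284 in place of 0.768.

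Satellite-like cells had 3 of 4 measured members at least 1.5-fold higher at 24 hours (25.8% of genes higher, 11.9% lower). Ccng1 had 0 UMIs in 33 early control cells and 38 UMIs in 70 irradiated cells, which is at least 10.0-fold higher against a floor of 3 UMIs in the control library. The exact lower limit of this ratio, on the same footing as the other intervals, is 7.76. Mdm4 stood at 48.0, 199, 96.3 and 61.4 CPM, with an early ratio of 4.15 (2.22 to 8.46). Mdm2 had 7 and 37 UMIs and a ratio of 4.18 (1.84 to 11.1), which was 1.04 among cells with at most 1 marker of another class. At 56 days only 25 irradiated cells were gated, and only Trp53 (1.17) and Mdm4 (0.638, 0.220 to 1.53) could be measured, where 16.2% of genes were higher by that fold and 24.3% lower.

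Pericyte or smooth muscle-like cells had 4 of 6 members past 1.5-fold at 24 hours (19.4% of genes higher, 14.6% lower). Of these only Ccng1, with 5 and 76 UMIs and a ratio of 4.51 (1.85 to 14.3), had an interval above 1. Its late ratio was 1.43 (0.570 to 3.90), and late Mdm2 was 1.02 (0.394 to 2.74). Schwann-like cells, the glia of peripheral nerve, also had 4 of 6 members past 1.5-fold at 24 hours (28% higher, 10.7% lower). The ratios were 2.87 (1.37 to 6.93) for Ccng1, 2.27 (1.12 to 5.22) for Mdm4, 2.06 (0.963 to 5.06) for Mdm2 and 8.25 (1.34 to 340) for Zmat3, the last from 1 and 23 UMIs. At 56 days 0 of 3 measured members were higher and 1, Ccng1 at 0.531 (0.167 to 1.47), was lower (15.6% and 16.4% of genes). Mdm2 UMIs there numbered 8, 46, 9 and 2.

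B lineage-like cells differed in pattern. Mdm2 stood at 55.2, 41.7, 30.5 and 62.8 CPM and Ccng1 at 30.3, 25.04, 18.3 and 29.3. The early irradiated library was not above its control in either gene, with ratios of 0.756 (0.395 to 1.37) and 0.826 (0.343 to 1.80). Mdm4 stood at 67.1, 172, 101 and 92.1 CPM, with an early ratio of 2.57 (1.78 to 3.72) and a late one of 0.916 (0.509 to 1.62). Mdm4 was the 1 of 5 measured members past 1.5-fold at 24 hours (20.3% of genes higher, 15.9% lower), and Malat1 was 1.42 times (1.39 to 1.46) the control there. At 56 days Mdm2 was the 1 of 3 past the fold, at 2.06 (0.866 to 5.13) and at 5.15 without cells holding B precursor genes, where 15.5% of genes were higher by that fold and 20.8% lower.

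Macrophage or monocyte-like cells could be compared at 56 days only, with Mdm2 at 1.79 (0.837 to 3.93), Ccng1 at 1.10 (0.548 to 2.19) and Mdm4 at 0.478 (0.195 to 1.07). Past 1.5-fold were 1 of 4 measured members in each direction, against 10.1% of genes higher and 26% lower. Myofibre-like barcodes, which had few UMIs per barcode (median 1390.5), held Ccng1 above every other class in each library, at 332, 391, 398 and 344 CPM, beyond counting error. There its ratios were 1.18 (0.862 to 1.62) and 0.863 (0.461 to 1.59), and in the early control 30 of its 65 UMIs came from 1 barcode. Neither ratio reached 1.5-fold (20.4% of genes higher and 8.97% lower at 24 hours, 12.2% and 14.5% at 56 days). Ppm1d reached 57.7 and 62.8 CPM in erythroid-like cells of the 2 controls, above endothelial-like cells beyond counting error in the late control.

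Across classes, Mdm4 was at least 1.5-fold higher at 24 hours in all 7 classes that measured it, with 5 intervals above 1. At 56 days it was past 1.5-fold higher in 0 of 7 and lower in 2, and in the late against the early control it was higher in 6 of 8. The shares of all genes past that fold in this control comparison were 13.4% in endothelial-like, 24.3% in fibro-adipogenic progenitor-like, 19.7% in satellite-like, 15.1% in pericyte or smooth muscle-like, 20.8% in Schwann-like, 19.3% in B lineage-like, 30% in neutrophil-like and 87.3% in erythroid-like cells. Neutrophil-like cells measured 0 of the 6 genes at 24 hours, where 48% of genes were higher and 23.6% lower. Ccng1 was higher in 6 of 8 classes and Mdm2 in 6 of 7 at 24 hours. Zmat3 passed the limit of 20 UMIs in 4 classes at 24 hours, in which its irradiated library supplied most of the UMIs, so their direction is no support. The other counts over classes that passed this limit, here for Mdm4, Ccng1 and Mdm2, carry the same restriction. Classes under that limit included B lineage-like cells with 5 and 1 UMIs and T or NK-like cells with 4 and 1. At 56 days only endothelial-like cells passed it. In 6 IR/CON comparisons of a class the median of all genes was itself over 0.1 from 0 on the log2 scale: at 24 hours 0.13 in satellite-like and in Schwann-like cells, 0.22 in T or NK-like cells, 0.56 in neutrophil-like cells and 0.11 in myofibre-like barcodes, and at 56 days -0.15 in macrophage or monocyte-like cells. Between the controls it was 0.11 in neutrophil-like cells, 0.15 in myofibre-like barcodes and 1.58 in erythroid-like cells.

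**Figure D4:**
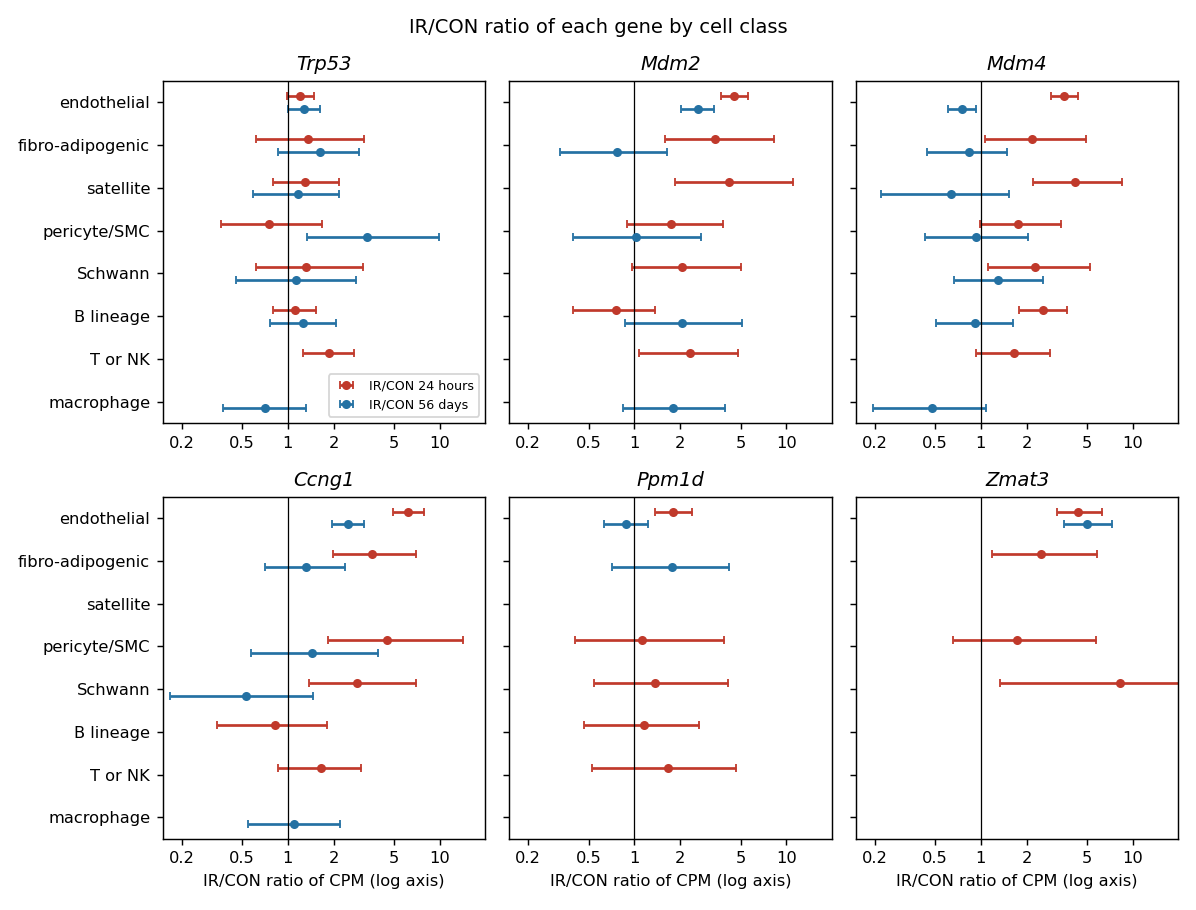
IR/CON ratio of CPM (x axis, log scale) of each gene by cell class (y axis) at 24 hours (red) and 56 days (blue), with exact 95% intervals for counting error and a line at 1. Classes with under 20 UMIs of a gene or under 25 cells in a library, and Ccng1 in satellite-like cells (0 control UMIs), have no point. Myofibre-like barcodes, where Ccng1 was measured, are not drawn. The upper bound of Zmat3 in Schwann-like cells, 340, lies beyond the axis. Mdm4 points at 24 hours all lie above 1.

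The wider pathway was described in endothelial-like cells with lists of genes around p53. These lists were chosen with earlier results of these data known, so the counts are descriptions and no independent support. Of 32 p53 target genes other than the members, 24 of 30 measured were at least 1.5-fold higher at 24 hours and 1 was lower, with a median log2 ratio of 1.40 against 0.07 over all measured genes. At 56 days 16 of 28 were higher and 2 lower, with a median of 0.96 against 0.02. Over all measured genes 17.2% were higher and 6.13% lower at 24 hours, and 12.9% and 13.3% at 56 days. The controls, which are the denominators, differed for this list too. In the late against the early control 1 of 28 was higher and 12 were lower, beside 13.4% and 10.5% of all genes. The median log2 ratio of the list there was -0.35 against 0.02. At 24 hours the furthest higher were Gdf15 (a stress cytokine), Cdkn1a and Sesn2 (a stress-induced regulator of metabolism), and Gadd45a (a damage-induced growth arrest gene) was lower. The ratios were 51.0 (31.8 to 87.7) for Gdf15, 9.33 (6.11 to 14.99) for Sesn2 and 0.553 (0.410 to 0.752) for Gadd45a. At 56 days the furthest higher besides Cdkn1a were Gdf15 at 87.7 (37.2 to 272) from 5 and 330 UMIs and Phlda3, a repressor of Akt, at 11.4 (9.40 to 14.0). Sesn1 at 0.524 (0.356 to 0.759) and Rrm2b, a ribonucleotide reductase subunit gene, at 0.657 (0.497 to 0.862) were lower.

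Other ligases, deubiquitinases and repressors of p53 limit it beside Mdm2. At 24 hours 5 of 15 were at least 1.5-fold higher and 0 lower, beside 17.2% and 6.13% of all genes, with a median log2 ratio of 0.32. With median-of-ratios scaling 3 were higher. The ligase gene Trim24 was at 1.91 (1.64 to 2.24), the ligase gene Huwe1 at 1.60 (1.38 to 1.86) and the deacetylase gene Sirt1 at 1.72 (1.24 to 2.42). At 56 days 1 was higher, the corepressor gene Trim28 at 1.74 (1.27 to 2.38), and 1 lower, Huwe1 at 0.597 (0.512 to 0.696), with a median of -0.14, beside 12.9% and 13.3% of all genes.

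Kinases and cofactors that activate p53 had 5 of 15 measured genes higher and 0 lower at 24 hours (median log2 ratio 0.08), and 0 higher and 5 lower at 56 days (median -0.38). The shares over all genes were 17.2% higher and 6.13% lower at 24 hours, and 12.9% and 13.3% at 56 days. Ep300, an acetyltransferase gene, was at 1.63 (1.37 to 1.94) and then 0.618 (0.510 to 0.745). Prkdc, the DNA-dependent protein kinase gene, was at 2.08 (1.26 to 3.62) and then 0.460 (0.288 to 0.714). Trp53bp1, which encodes a break-site scaffold, was at 2.29 (1.49 to 3.67) at 24 hours, and Trp53bp2 was at 0.510 (0.301 to 0.837) at 56 days. Ep300 and Prkdc, like Mdm4 and Huwe1, lay above the control early and below it late. Their controls differed too, with Ep300 at 83.1, 135, 128 and 79.0 CPM and Prkdc at 9.41, 19.5, 29.35 and 13.5. In the late against the early control 5 of 15 measured genes of this list were higher and 1 lower, beside 13.4% and 10.5% of all genes. The median log2 ratio of the list there was 0.20.

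Of 9 protein phosphatase 2A subunit genes, which encode the enzyme that cyclin G1 recruits, 1 was higher and 0 lower at 24 hours, and 1 was higher and 1 lower at 56 days. These counts are near or below the shares of all genes, 17.2% and 6.13% at 24 hours and 12.9% and 13.3% at 56 days. The regulatory subunit gene Ppp2r5b was at 1.83 (0.956 to 3.85) and 1.66 (0.939 to 2.97), and Ppp2r5a was at 0.548 (0.490 to 0.613) at 56 days. The p53 relatives Trp63 and Trp73 were measured in neither comparison.

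Genes with the most similar pattern were sought over 38 sums, each a class in a library with at least 25 cells, by the Pearson correlation of log2 CPM among 10946 genes. These sums share libraries, depth and cell types, so the values are descriptions only. Trp53 was nearest to Sf3b3 (0.95), a splicing factor gene, then Hnrnpa0 (0.90) and Ddx21 (0.90). Mdm4 was nearest to Larp4 (0.90), Kmt2a (0.89) and Mga (0.89). Kmt2a, a histone methyltransferase gene, also had endothelial-like ratios of 1.50 (1.30 to 1.74) early and 0.648 (0.554 to 0.756) late. Zmat3 was nearest to Cdc42bpb (0.86), Rras (0.83) and Ece1 (0.83), whose early endothelial-like ratios were 1.10, 0.853 and 0.732 beside 4.38 for Zmat3. Mdm2 was nearest to Nrbp1 (0.75), Aggf1 (0.72) and Msl1 (0.71), Ccng1 to Atpaf1, Klhdc3 and Cox14 (each 0.78) and Ppm1d to Txnl1 (0.74), Cpox (0.73) and Swt1 (0.72). Among the members Trp53 and Mdm4 were the most alike (0.79), and Trp53 had 0.32 with Mdm2 and -0.13 with Ccng1.

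Markers of other cell types differed between the endothelial-like sums, as given above. With cells limited to at most 1 marker of any other class, the 24-hour ratios were 4.47 for Mdm2, 3.68 for Mdm4, 6.12 for Ccng1, 1.64 for Ppm1d and 4.87 for Zmat3, and the 56-day ratios were 2.56, 0.807, 2.90, 0.939 and 5.81. All of these lie within the intervals of the values from all gated cells. Over all kept cells, where class proportions differ between libraries, the 24-hour ratios were 1.06 for Trp53, 4.51 for Mdm2, 3.38 for Mdm4, 4.77 for Ccng1, 1.78 for Ppm1d and 5.85 for Zmat3, where 34.6% of genes were past 1.5-fold higher and 10.8% lower. At 56 days they were 1.17, 1.68, 0.795, 1.93, 0.934 and 5.44. The median of all genes over all kept cells was 0.35 higher at 24 hours and 0.11 higher at 56 days on the log2 scale.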

How the data were processed

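Per the file headers and the submitters' processing notes, the authors aligned reads to mm10 and made the counts with Cell Ranger 5.0.0, and the deposited matrices hold raw UMI counts for barcodes that had already been filtered. The annotation and strand setting are not given in the sources used here. Gene identifiers and barcodes were read as deposited by the authors. The 6 genes and all lists were chosen with earlier results of these data known.

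Barcodes were kept where they had 200 or more genes, 500 or more UMIs and a mitochondrial share of 20% or less. A cell joined a class with at least 3 distinct markers of its list and a lead of 2 over every other list. No doublet caller was run, so mixed cells that pass the gate may remain. UMIs were summed over a class in each library and divided by the class total. Classes needed 25 cells in both libraries, and a gene 20 UMIs over both. Levels carry exact Poisson, ratios exact conditional binomial, ratios of ratios exact conditional odds-ratio and shares exact binomial (Clopper-Pearson) intervals at 95%, for counting error only. The floor for 0 counts was 3 UMIs. Log2 CPM for correlations used a prior count of 0.5. Pathway genes named were the 3 furthest higher and 3 furthest lower of each list by the interval bound nearest 1 in the largest class, and each member's 3 most correlated genes. Interval code was tested on simulated data. Python 3.11.15, numpy 2.4.6, scipy 1.17.1 and pandas 2.3.3 were used. Coordinates of genes are from GENCODE on GRCm38 and promoter windows from RefSeq.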

Additional observations from a re-analysis of the deposited data

Results flagged for a closer look

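Mdm4 in endothelial-like cells lay on opposite sides of its control at the 2 times, with an IR/CON ratio of 3.51 at 24 hours and 0.752 at 56 days, and both counting intervals left out 1. With cells thinned to 1000 UMIs the late ratio was 1.03. The difference between the times was not tested, because each group is 1 library. Malat1, at 1.77 and 0.901, lay on the same sides, and its part in the Mdm4 values was not tested.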

How the results depend on the processing

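No paired analysis was possible because each group is 1 library. Of 236 recomputed values of the main results, 228 stayed within counting error or within 1.5 times of a count, and 8 moved further, of which Mdm4 at 56 days crossed 1, from 0.752 to 1.03. All 8 came from thinning cells to 1000 UMIs, which also leaves fewer UMIs: Ccng1 4.18 and Ppm1d 1.24 at 24 hours, Mdm2 1.98, Mdm4 1.03 and Ppm1d 0.616 at 56 days, late over early values of 0.321 for Mdm4 and 0.625 for Ccng1, and 1 member at least 1.5-fold lower at 56 days in place of 0. Of 1013 other values, 961 stayed, 50 moved and 2 turned from past 1.5-fold to the other side of 1: Ppm1d in fibro-adipogenic progenitor-like cells at 56 days was 0.985 among cells with at most 1 marker of another class, and Ccng1 in Schwann-like cells at 56 days was 1.29 after thinning. Values within 1.5-fold, and late over early values whose interval spans 1, are not among these 2 but also crossed 1 in places: in fibro-adipogenic progenitor-like cells at 56 days, thinning gave 2.35 for Mdm2 and 0.235 for Ccng1. Trp53 over all kept cells at 24 hours was 0.837 with median-of-ratios scaling. Mdm2 in B lineage-like cells at 56 days was 5.15 without cells holding B precursor genes. The other repressors of p53 at least 1.5-fold higher at 24 hours numbered 3 in place of 5 with median-of-ratios scaling. The cause of these moves was not tested. Classes other than endothelial-like cells rest on few UMIs in single libraries.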
